A study of Homo sapiens with 8 samples.

Results

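Broad peaks, taken here as p53 peaks of 1000 bp or more, made up 2014 of the 97582 peaks in the 4 deposited peak lists of this chromatin immunoprecipitation with sequencing (ChIP-seq) study. They were chosen by length alone, the end minus the start of each peak, and every one of them was used. All 4 libraries were made from 293T, an immortalised line of human kidney origin whose cells express the SV40 large T antigen, which binds p53. The Dox libraries are from cells exposed for 24 h to 0.5 µg/ml doxorubicin, and the PBS libraries from cells given the phosphate-buffered saline vehicle over the same 24 h. The p53 antibody was clone 1C12. In both conditions replicate 1 came from passage 3 and replicate 2 from passage 5, so 2 libraries stood for each condition. The labels also name input samples, which were not analysed here.

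p53 is a transcription factor that accumulates after DNA damage and binds a response element near genes such as CDKN1A, MDM2 and BBC3. Doxorubicin traps topoisomerase II on DNA and breaks it. A peak caller reports a stretch of DNA over which the reads exceed a local background, so a peak's length tells how far that excess reaches on either side of its highest point, the summit. Genes for small nuclear RNAs (snRNAs), small nucleolar RNAs (snoRNAs), transfer RNAs and 5S ribosomal RNA are short and heavily transcribed, and many exist as near-identical copies. The sources used here do not say how reads with several matches were placed among such copies, and a peak in one copy cannot be told apart from a peak in another.

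A broad peak in 3 or more lists was found in 46 listed windows, among them gene clusters and repeated blocks that bear no gene symbol. By symbol, 21 of the 46 matched an entry in the RefSeq promoter table of build GRCh38.p14. The 250 bases upstream of the start of 5 of these genes are shown because they carry the contrast between gene kinds met below: a p53 target, an immediate-early gene, 2 ribosomal protein genes and a cytoskeletal gene. BBC3 is at chr19:47232668-47232917 (minus strand), EGR1 at chr5:138465229-138465478 (plus strand), RPL3 at chr22:39319624-39319873 (minus strand), RPL13 at chr16:89560407-89560656 (plus strand) and ACTG1 at chr17:81512800-81513049 (minus strand), all in GRCh38.p14. Capitals mark a match to the p53 response-element decamer, to TATAA or its reverse complement TTATA, or to CCAAT or its reverse complement ATTGG.
BBC3: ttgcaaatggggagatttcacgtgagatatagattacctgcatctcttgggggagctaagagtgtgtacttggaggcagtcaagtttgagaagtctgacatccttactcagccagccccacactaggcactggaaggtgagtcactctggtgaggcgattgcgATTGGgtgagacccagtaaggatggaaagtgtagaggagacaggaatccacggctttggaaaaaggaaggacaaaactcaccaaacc
EGR1: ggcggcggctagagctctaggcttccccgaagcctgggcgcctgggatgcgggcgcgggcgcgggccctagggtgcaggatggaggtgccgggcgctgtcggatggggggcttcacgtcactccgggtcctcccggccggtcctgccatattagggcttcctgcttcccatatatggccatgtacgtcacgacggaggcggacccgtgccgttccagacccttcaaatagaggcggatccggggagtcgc
RPL3: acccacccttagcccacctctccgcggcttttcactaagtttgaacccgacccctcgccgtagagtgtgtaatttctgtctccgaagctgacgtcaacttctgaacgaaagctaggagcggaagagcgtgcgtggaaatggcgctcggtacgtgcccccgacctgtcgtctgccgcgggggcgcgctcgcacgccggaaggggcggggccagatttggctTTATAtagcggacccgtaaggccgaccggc
RPL13: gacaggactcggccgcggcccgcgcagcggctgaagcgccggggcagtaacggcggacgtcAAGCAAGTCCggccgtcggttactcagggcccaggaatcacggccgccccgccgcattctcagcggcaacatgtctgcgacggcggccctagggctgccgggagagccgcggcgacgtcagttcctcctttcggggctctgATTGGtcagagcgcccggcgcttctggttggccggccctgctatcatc
ACTG1: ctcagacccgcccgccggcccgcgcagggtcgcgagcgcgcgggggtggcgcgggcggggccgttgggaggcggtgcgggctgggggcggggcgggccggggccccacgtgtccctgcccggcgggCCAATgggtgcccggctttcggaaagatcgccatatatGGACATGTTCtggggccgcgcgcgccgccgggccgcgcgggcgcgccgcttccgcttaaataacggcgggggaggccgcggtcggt
The p53 decamer was found upstream of 2 of the 21 genes, RPL13 and ACTG1, or 9.52%, beside 5.57% of all 35116 promoters in the table. TATAA or TTATA was found in 6 of the 21 (28.6%, beside 18.9% of all), and CCAAT or ATTGG in 8 (38.1%, beside 32.0% of all). These matches describe the letters of this window only. The peaks are in build hg19, so whether a peak covers the printed bases was not tested.

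The lists held unequal numbers of broad peaks, in step with their own lengths. Dox replicate 1 had 1075 broad peaks among 46658, Dox replicate 2 had 294 among 16642, PBS replicate 1 had 198 among 11304 and PBS replicate 2 had 447 among 22978. As a share of the list this was 2.30% (95% Wilson interval 2.17 to 2.44), 1.77% (1.58 to 1.98), 1.75% (1.53 to 2.01) and 1.95% (1.77 to 2.13). The intervals cover counting error only. Peaks under 300 bp, called narrow here, were 25750, 8958, 6286 and 12891 in the same order and made up 55.2, 53.8, 55.6 and 56.1% of the lists. The broad peaks thus formed a small part of each list by number, yet they held 9.04, 6.69, 6.82 and 7.87% of its covered bases.

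**Figure D1:**
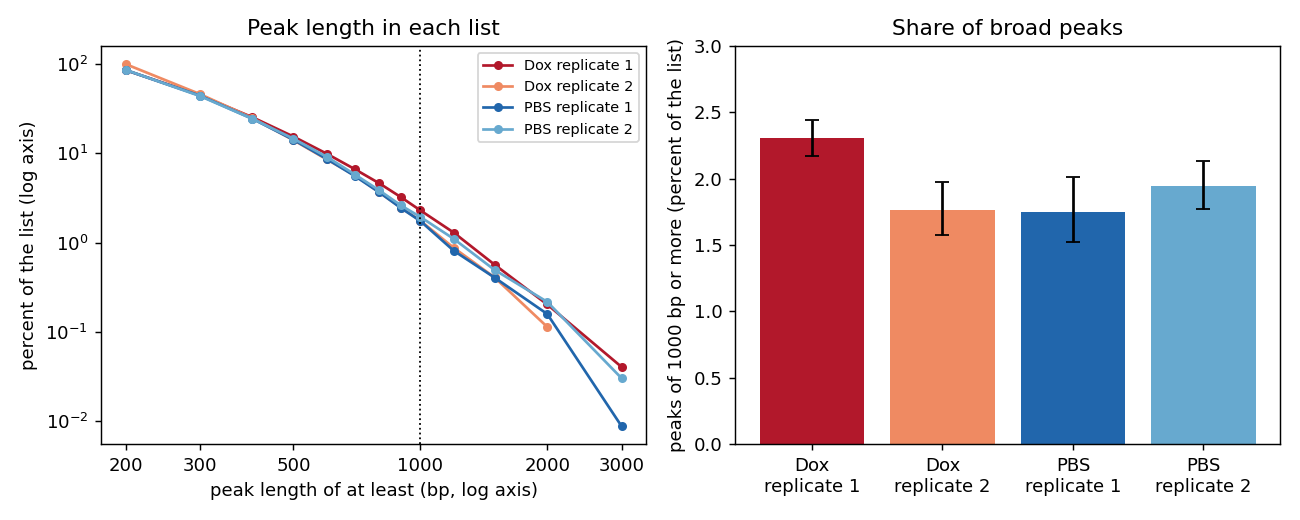
Left, percent of each list (y axis, log scale) with a peak length of at least the value on the x axis (bp, log scale), with a dotted line at 1000 bp. Right, broad peaks as a percent of each list with 95% Wilson intervals; the bar of Dox replicate 1 stands at 2.30% and those of the other libraries between 1.75 and 1.95%.

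The study asks how p53 binding at baseline compares with binding under doxorubicin. The mean number of broad peaks was 684.5 ± 552.25 (SD, n = 2) with doxorubicin and 322.5 ± 176.07 (SD, n = 2) with PBS, a difference of 362, less than 1 SD of the Dox libraries (two-sided exact permutation test, p = 0.667, adjusted p = 0.667 over 2 tests). As a share of the list the means were 2.04 ± 0.38% (SD, n = 2) and 1.85 ± 0.137% (SD, n = 2), a difference of 0.187 percentage points (two-sided exact permutation test, p = 0.667, adjusted p = 0.667 over 2 tests). With 2 libraries against 2 this exact permutation test cannot go below p = 0.333. The libraries of passage 3 differed by 877 broad peaks (0.552 points) in favour of Dox, and those of passage 5 by -153 (-0.179 points). Without Dox replicate 1 the difference turned to -28.5 peaks and -0.0819 points. When each list was reduced to its 11304 peaks of smallest p, the difference was 314 peaks and 2.78 points. List length moved with the count of broad peaks, and its part in the result was not tested.

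Most broad peaks were only just over the threshold. Their median length was 1250 and 1197 bp in the Dox lists (replicates 1 and 2) and 1180 and 1252 bp in the PBS lists. Lengths of 2000 bp or more were reached by 95, 19, 18 and 50 peaks, and of 3000 bp or more by 19, 0, 1 and 7. Values changed gradually across 1000 bp. In Dox replicate 1 the 432 peaks of 900 to under 1000 bp had a median fold enrichment of 3.50 and the 285 peaks of 1000 to under 1100 bp one of 3.70; in PBS replicate 1 these were 3.62 (78 peaks) and 3.63 (58 peaks). The peak just inside the threshold in Dox replicate 1 was chr16:87255202-87256201 in hg19, 1000 bp long with a fold enrichment of 5.13, and the one just outside was chr22:20116369-20117367, 999 bp long with 4.54. In Dox replicate 2 they were chr22:36519396-36520395 (3.44) and chr2:16253051-16254049 (5.07). In PBS replicate 1 they were chr19:1443316-1444315 (3.62) and chr7:148027895-148028893 (5.49), and in PBS replicate 2 chr21:18826669-18827669 (4.80) and chr9:35913405-35914402 (3.48). Of these single peaks neither the longer nor the shorter was the higher in all 4 lists.

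Broad peaks were also the stronger ones, which length and p share by construction, so these values are given as a description. The authors' fold enrichment is the ratio of reads at the summit to the caller's local background. Its median over broad peaks was 4.07, 3.93, 3.87 and 4.20 in the 2 Dox and then the 2 PBS lists, and over narrow peaks 2.32, 2.71, 2.54 and 2.73. Among the 100 peaks of smallest p, 47, 41, 38 and 45 were broad. An authors' q-value of at most 0.05 was reached by 427 broad peaks of Dox replicate 1 (39.7%, beside 3.65% of its list), 133 of Dox replicate 2 (45.2%, beside 4.84%), 63 of PBS replicate 1 (31.8%, beside 2.56%) and 210 of PBS replicate 2 (47.0%, beside 5.84%). More than 1 in 2 broad peaks of each list therefore had q above 0.05.

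Broad peaks recurred across libraries far more often than narrow ones. A broad peak shared at least 1 bp with a peak of any length in all 3 other lists for 724 of the Dox replicate 1 peaks (67.3%, beside 8.25% of all its peaks), 257 of Dox replicate 2 (87.4%, beside 22.8%), 186 of PBS replicate 1 (93.9%, beside 33.5%) and 377 of PBS replicate 2 (84.3%, beside 16.7%). The same held for 2.09, 11.1, 20.1 and 6.04% of narrow peaks. The difference between the classes was 73.4 ± 5.75 percentage points (SD, n = 4 libraries) and was positive in 4 of 4 libraries (two-sided exact permutation test by sign flips, p = 0.125, adjusted p = 0.125 over 4 tests). This is the smallest p that 4 libraries can give, here and in the 3 tests of the same kind below. Overlap is mutual, and 3849, 3801, 3788 and 3828 peaks of any length in the 4 lists met a peak in all 3 others. The 4 recurrence differences therefore count largely the same sites and are not independent, which limits their SD and p. A longer peak has more bases with which to meet another. When only the summit had to lie inside a peak of each other list, the shares were 39.1, 65.6, 75.3 and 55.5% for broad and 1.59, 8.35, 16.1 and 4.58% for narrow peaks. Within a −log10 p of 3 to 5, broad peaks recurred in 56.4, 81.4, 88.7 and 70.7% and narrow peaks in 11.9, 19.1, 47.3 and 9.45%. Among peaks with q of at most 0.05 the difference between the classes was 20.1 points, against 73.4 over all peaks.

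**Figure D2:**
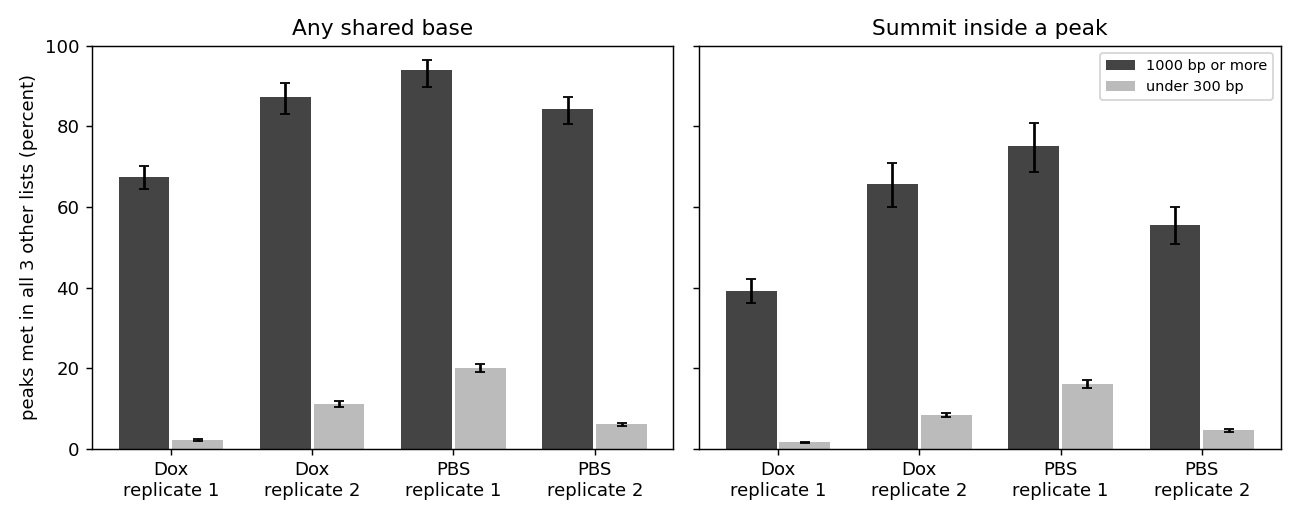
Percent of peaks met in all 3 other lists (y axis), for broad (dark) and narrow (light) peaks of each library, with 95% Wilson intervals; left, by any shared base, and right, by the summit lying inside a peak of each other list. The dark bars stand above the light bars in all 4 libraries in both panels, from 67.3 to 93.9% on the left and from 39.1 to 75.3% on the right.

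A broad peak was seldom broad everywhere. Of the 1075 broad peaks of Dox replicate 1, 82.4% met a peak in Dox replicate 2 but only 16.7% met a broad one there, and the peaks they met had a median length of 571.5 bp. In the other direction 97.6% of the 294 broad peaks of Dox replicate 2 met a peak in Dox replicate 1, and 61.9% a broad one. Of the PBS replicate 2 broad peaks, 89.9% met a peak and 26.6% a broad peak in PBS replicate 1. Between 25.7 and 36.9% of the broad peaks of a list met several separate peaks in another, up to 12. In all, 57 broad peaks had no counterpart in any other list. They were 5.02 and 0% of the broad peaks in the Dox lists and 0 and 0.671% in the PBS lists. Over peaks of all lengths these shares were 66.4, 28.6, 18.6 and 36.9%. Dox replicate 1 held 54 of the 57 broad peaks, the strongest by p being chr6:166400353-166401633 (fold enrichment 4.83). PBS replicate 2 held the other 3, led by chr6:89795335-89796627 (3.84).

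Merged over the libraries, the broad peaks formed 1377 sites. Of these, 1001 were broad in 1 list, 213 in 2, 95 in 3 and 68 in all 4, while 940 (68.3%) had a peak of some length in all 4. The list of Dox replicate 1 alone made 745 of the sites broad, and at 413 of those each other list had a shorter peak. Leaving out PBS replicate 1, the shortest list, raised the number broad in all remaining lists from 68 to 121. The 68 sites lay on 15 chromosomes, 22 of them on chromosome 1. All 4 lengths chose these sites, so the lengths below are a description.

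The sites of smallest p among the 68 lay mostly in windows of small RNA genes. Of the 20 leading sites, 14 lay in small RNA gene windows, 3 in the duplicated block at chromosome band 1q21, 1 at NEAT1 and 2 in no listed window. Over all 68, 22 were in small RNA gene windows, 7 in repeated blocks, 8 at ribosomal protein genes, 11 at other listed genes and 20 in no listed window. None was in the window of a p53 target gene, but these windows held only 0.165, 0.306, 0.354 and 0.235% of all peaks of the 4 lists. With so small a share, nothing is read from their absence among 68 sites. At the 20 leading sites the median fold enrichment was 13.6 and 11.3 in the Dox lists and 9.71 and 16.1 in the PBS lists, and the lowest rank by p in any list was 123. The windows for ribosomal protein genes, snoRNA host genes and 5 further small RNA genes were listed after the sites had been seen, so their counts describe these sites only.

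The U4 genes RNU4-1 and RNU4-2, whose RNA pairs with U6 in the spliceosome, lay under a single broad site at chr12:120728497-120731197 in hg19. Its peak was 2453 and 2701 bp long with Dox (replicates 1 and 2) and 2359 and 2466 bp long with PBS, the order kept below, with fold enrichments of 20.5, 14.8, 10.1 and 22.3. The lengths and the folds of the 2 conditions overlapped. RNU2-2, a U2 snRNA gene for the branch-point recognition particle, was at chr11:62606722-62609480 with lengths of 2700, 1987, 1798 and 2000 bp and folds of 19.5, 18.2, 6.42 and 25.6. RNU11, the U11 snRNA gene of the minor spliceosome, was at chr1:28974923-28976746 with lengths of 1684, 1485, 1342 and 1731 bp and folds of 15.8, 7.39, 13.3 and 9.69. Here too PBS replicate 1 had the shortest peak and PBS replicate 2 a long one, so the conditions overlapped.

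The snoRNA genes gave sites of the same kind. The window of tRNA genes and SNORD118, the U8 snoRNA gene of ribosomal RNA processing, held chr17:8075582-8077153 with lengths of 1394, 1418, 1325 and 1517 bp and folds of 14.9, 18.0, 8.72 and 22.5. The SNORD3 cluster, which encodes the U3 snoRNA needed for ribosomal RNA cleavage, held chr17:18965076-18967670 with lengths of 2262, 2410, 2539 and 2426 bp. Both PBS peaks there were just longer than both Dox peaks, as at 8.12% of all 3840 sites with a peak in all 4 lists. The cluster also held chr17:19091169-19093779 with lengths of 2275, 2230, 1583 and 2576 bp. The other leading small RNA sites were in the windows of the U5 genes RNU5A and RNU5B (chromosome 15) and RNU5E-1 (chromosome 1), of the U1 copy RNU1-28P (chromosome 14) and of the U1 and tRNA genes of 1p36. Which sites of the 1p36 window lie at a U1 gene was not tested. All copies of U1 and of U3 share nearly the same sequence, so their values may not be separate measurements.

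The first site by rank was chr1:148603540-148605108 in the 1q21 block, with lengths of 1554, 1569, 1163 and 1279 bp and folds of 19.4, 18.1, 10.3 and 23.9; both Dox peaks were longer than both PBS peaks, while the folds overlapped. The second was at NEAT1, the long noncoding RNA gene of nuclear paraspeckles, at chr11:65190010-65191492, with lengths of 1404, 1037, 1320 and 1018 bp and folds of 26.4, 22.4, 14.9 and 17.9. The next 2 sites, chr17:56735201-56736900 and chr17:56708025-56709411, were in no listed window. At chr17:56735201-56736900 the peak was 1613, 1631, 1175 and 1421 bp long, with both Dox peaks longer than both PBS peaks and folds of 26.9, 11.01, 13.4 and 11.8. Such an order of lengths, Dox above PBS, was met at 22.2% of all 3840 sites with a peak in all 4 lists. Both of the other leading 1q21 sites, chr1:148241432-148242667 and chr1:149222054-149225034, had folds between 6.19 and 15.8 in the 4 lists.

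The small RNA genes did not all behave this way. Of 23 windows listed for such genes, 9 had a broad peak in all 4 lists, 2 in 3 lists and 10 in none, while 19 had some peak in all 4. The 9 included the U5 gene window of 1p34 (longest peaks 1716, 1329, 2337 and 2516 bp) and the tRNA window of 1q23 (1819, 1462, 1854 and 1624 bp). The 2 were RNU12 (1087, 815, 1255 and 1278 bp) and the tRNA and histone gene window of 6p22 (1380, 1176, 1243 and 960 bp). The 10 were RN7SK, RMRP, RPPH1, RN7SL1, RNU6-1, SCARNA2, TERC, the Y RNA genes, the vault RNA genes and the tRNA genes of 14q11. Some windows span a gene cluster and others a single gene, and the counts were not adjusted for window length. The U1 and tRNA window of 1p36 held 64, 31, 25 and 39 peaks and that of RN7SK 2, 2, 1 and 1. RN7SK, whose RNA holds the elongation factor P-TEFb inactive, had a longest peak of 496, 438, 259 and 506 bp with folds of 3.89, 3.35, 3.59 and 3.87. HEXIM1, the protein partner of that RNA, was broad in 3 lists, with 1728, 1355, 726 and 1297 bp and folds of 20.1, 22.3, 14.4 and 20.2.

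**Figure D3:**
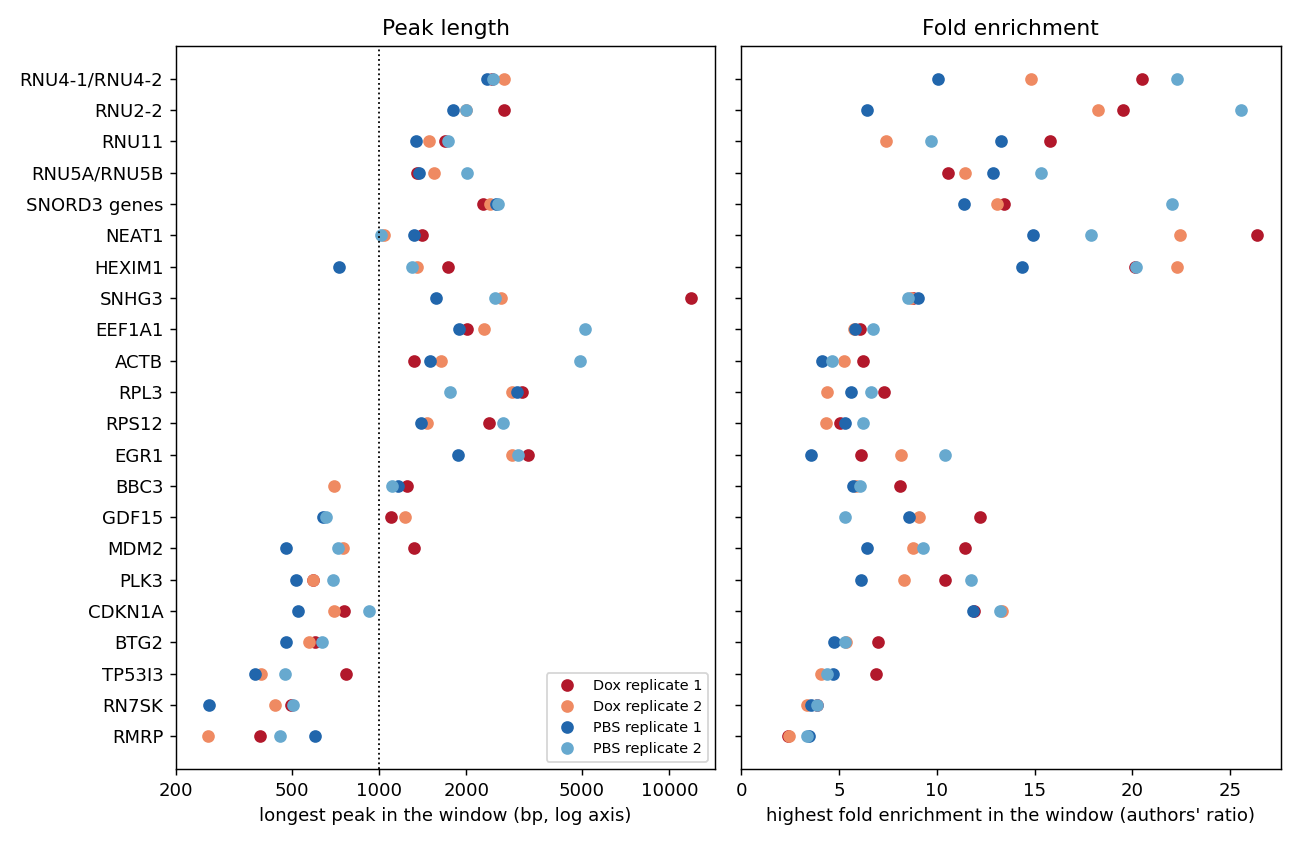
Longest peak (left, bp, log axis, dotted line at 1000 bp) and highest fold enrichment (right, the authors' ratio) in gene windows picked for display, 1 point per library. The other listed windows are not shown. RNU4-1/RNU4-2 lies between 2359 and 2701 bp in all 4 lists, whereas CDKN1A lies between 526 and 925 bp; the highest fold can belong to another peak of the window than the longest.

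As a share of all broad peaks, the small RNA gene windows held 45 (4.19%) and 30 (10.2%) in the Dox lists and 26 (13.1%) and 27 (6.04%) in the PBS lists. They held 0.520, 1.11, 1.13 and 0.962% of the narrow peaks. The difference was 7.46 ± 3.80 percentage points (SD, n = 4 libraries), positive in 4 of 4 libraries (two-sided exact permutation test by sign flips, p = 0.125, adjusted p = 0.125 over 4 tests). Within a −log10 p of 3 to 5 it was -0.0769 points, and with q of at most 0.05 it was 17.3. Repeated blocks, which are segmental duplications, pericentromeric stretches and ribosomal DNA, held 37 (3.44%), 14 (4.76%), 18 (9.09%) and 28 (6.26%) of the broad peaks and 1.74, 2.55, 2.59 and 2.59% of the narrow peaks. That difference was 3.52 ± 2.15 points (SD, n = 4 libraries), positive in 4 of 4 libraries (two-sided exact permutation test by sign flips, p = 0.125, adjusted p = 0.125 over 4 tests), and -0.0662 points among peaks with q of at most 0.05. All lists together, the later ones included, took in 13.5, 29.6, 40.9 and 23.9% of the broad peaks, so most broad peaks were in no listed window.

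**Figure D4:**
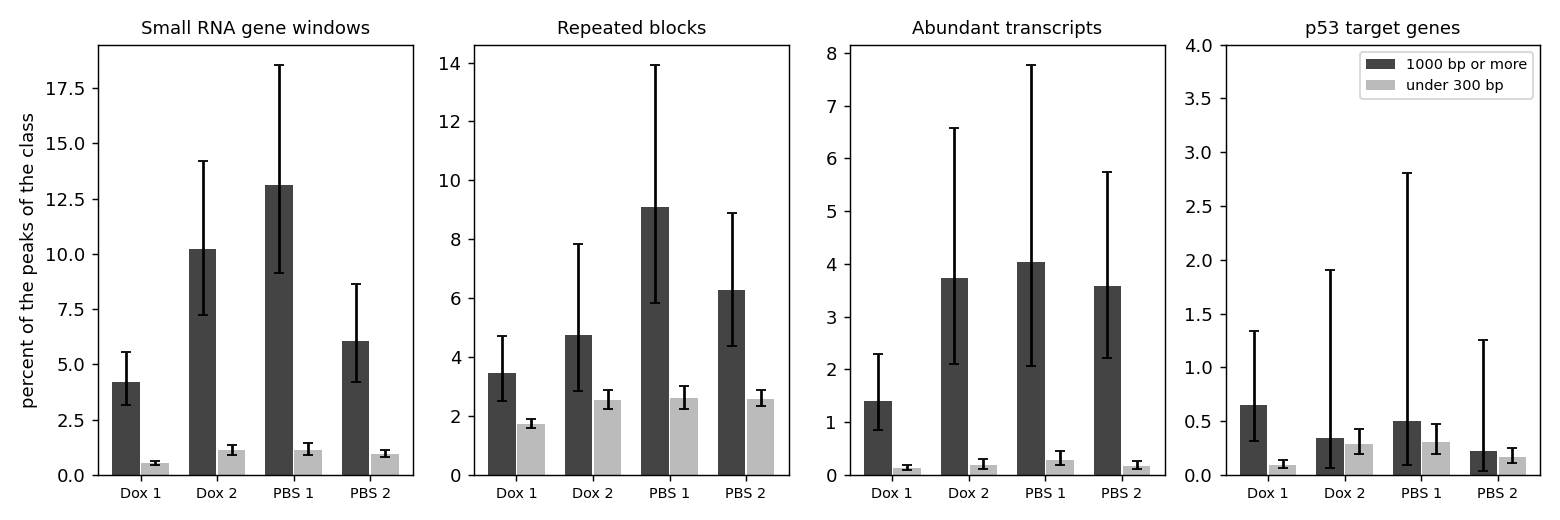
Percent of the broad (dark) and narrow (light) peaks of each library that lie in each of 4 lists of hg19 windows (y axes differ), with 95% Wilson intervals. Small RNA gene windows hold 4.19 to 13.1% of broad peaks, and p53 target genes 0.224 to 0.651%. The lists cover 4224 kb (small RNA genes), 59166 kb (repeated blocks), 207 kb (abundant transcripts) and 563 kb (p53 target genes). The shares were not adjusted for this, so only broad and narrow bars of the same list can be compared.

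Broad peaks also lay at genes of abundant or inducible transcripts, both coding and noncoding. Their 17 windows, NEAT1, HEXIM1, ACTB, EEF1A1 and EGR1 among them, held 1.40, 3.74, 4.04 and 3.58% of the broad peaks and 0.132, 0.190, 0.286 and 0.171% of the narrow peaks. Of 24 ribosomal protein gene windows, 7 were broad in all 4 lists and 10 in none, and of 7 snoRNA host gene windows 4 were broad in all 4. The highest fold in a ribosomal protein window had a median of 3.99, 4.16, 3.86 and 4.50 over the 24 windows in the 4 lists. RPL3, a protein of the large ribosomal subunit, had a longest peak of 3120, 2877, 2991 and 1755 bp with highest folds of 7.29, 4.39, 5.60 and 6.64. RPS12, of the small subunit, had 2394, 1461, 1395 and 2682 bp, and those longest peaks had folds of 5.05, 3.93, 3.35 and 2.15. GAS5, a noncoding host of snoRNA genes, had 2093, 2769, 2667 and 2911 bp. EEF1A1, the translation elongation factor gene, had 2005, 2304, 1893 and 5118 bp, and ACTB, cytoplasmic actin, 1316, 1630, 1500 and 4909 bp. EGR1, an immediate-early transcription factor gene, had 3252, 2867, 1867 and 3001 bp. In each of these windows the longest Dox and PBS peaks overlapped in length, but they can come from different sites. At the RPL3 site chr22:39713634-39717064 the lengths were 3120, 2877, 1351 and 1755 bp, both Dox longer. At the ACTB site they were 1316, 1311, 1500 and 4909 bp, both PBS longer. Lengths overlapped at the other sites of these genes broad in all 4 lists. Such orders were met at 22.2% (Dox longer) and 8.12% (PBS longer) of all 3840 sites with a peak in all 4 lists.

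The windows of p53 target genes held few broad peaks, and their enrichment ranged widely. Of 21 target windows, 18 had a peak in all 4 lists, 14 had no broad peak in any list and 0 were broad in all 4. The numbers of broad peaks in them were 7, 1, 1 and 1, or 0.651, 0.340, 0.505 and 0.224% of the broad peaks, beside 0.0932, 0.290, 0.302 and 0.163% of the narrow peaks and 0.165, 0.306, 0.354 and 0.235% of all peaks. The 95% Wilson intervals of the broad and narrow shares overlapped in all lists but Dox replicate 1. They cover counting error over peaks only and rest on 7, 1, 1 and 1 broad peaks, so no call is made from them. The highest fold in a window had a median of 6.02, 4.54, 4.69 and 5.02 over the target windows with a peak, and the strongest peak a median length of 741, 396, 378 and 475 bp. FAS, a death receptor gene, was among the weak ones, with highest folds of 2.48, 2.74, 3.53 and 2.14. CDKN1A, the cell-cycle inhibitor p21, was among the strong ones, with highest folds of 11.9, 13.3, 11.9 and 13.2 in peaks of 756 and 702 bp with Dox and 526 and 628 bp with PBS. A longer peak of 925 bp in its window in PBS replicate 2 had a fold of 4.20. PLK3, a stress-response kinase, had a peak of 591, 593, 519 and 695 bp at folds of 10.4, 8.34, 6.10 and 11.8.

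BBC3, which encodes the pro-apoptotic protein PUMA, was the one p53 target broad in 3 lists, with longest peaks of 1252, 702, 1159 and 1108 bp at folds of 4.90, 5.89, 3.62 and 3.34. In the 3 lists with a broad peak the strongest peak of its window was another, of 364, 611 and 411 bp, at folds of 8.10, 5.72 and 6.05. GDF15, a stress-induced growth factor, was broad in both Dox lists and in neither PBS list, with longest peaks of 1100, 1231, 642 and 659 bp. The highest folds in its window were 12.2, 9.09, 8.56 and 5.31, so neither measure overlapped between the conditions in these 4 libraries. Both Dox peaks were longer than both PBS peaks at 22.2% of all 3840 sites with a peak in all 4 lists. No such share was computed for folds, so nothing is read from this gene. MDM2, the ubiquitin ligase of p53, was broad in Dox replicate 1 only, with longest peaks of 1321, 754, 480 and 724 bp at folds of 11.4, 2.81, 2.55 and 3.03. The highest folds in the MDM2 window were 11.4, 8.78, 6.44 and 9.31, in peaks of 1321, 487, 313 and 500 bp. BAX, SESN2, PHLDA3 and GADD45A were likewise broad in Dox replicate 1 alone.

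Over all sites the direction of the length difference can be set beside that at broad sites. Of 3840 sites with a peak in all 4 lists, both Dox peaks were longer than both PBS peaks at 22.2%, and both PBS peaks longer at 8.12%. When all peaks were merged, 69 sites were broad in all 4 lists, and of these 12 (17.4%) were longer in Dox, 9 (13.04%) longer in PBS and 48 overlapped. Their median lengths were 1781 and 1498 bp with Dox and 1377 and 1860 bp with PBS. The length rule used the same values, so nothing is read from these counts.

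Relative to peak length, the summit of a broad peak lay further off its centre than that of a narrow peak. Its median distance from the centre, as a percent of the distance from centre to edge, was 43.9 and 41.3% in the Dox lists and 38.2 and 41.5% in the PBS lists. For narrow peaks it was 27.9, 27.6, 27 and 26.4%. The difference was 14.02 ± 2.06 percentage points (SD, n = 4 libraries), positive in 4 of 4 libraries (two-sided exact permutation test by sign flips, p = 0.125, adjusted p = 0.125 over 4 tests). Among peaks with q of at most 0.05 the difference was 25 points. Peak length, which defined the classes, is also the divisor of this measure. Narrow peaks had median lengths of 226, 234, 224 and 226 bp, near the shortest peaks of their lists (193, 203, 188 and 193 bp). The test therefore cannot separate the place of the summit from the length rule, and no conclusion is drawn from it. Summits in the outer parts of the peak, more than 2 of 3 of the way to an edge, made up 22.9, 18.7, 17.2 and 21.5% of broad and 11.9, 10.0, 12.5 and 10.3% of narrow peaks. In base pairs the broad summit still stood well inside the peak, with a median of 375, 381, 412 and 384 bp to the nearer edge. Summits left of the centre were 50.8, 53.1, 53.03 and 52.8% of broad peaks, so neither side was favoured by more than a few percent.

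**Figure D5:**
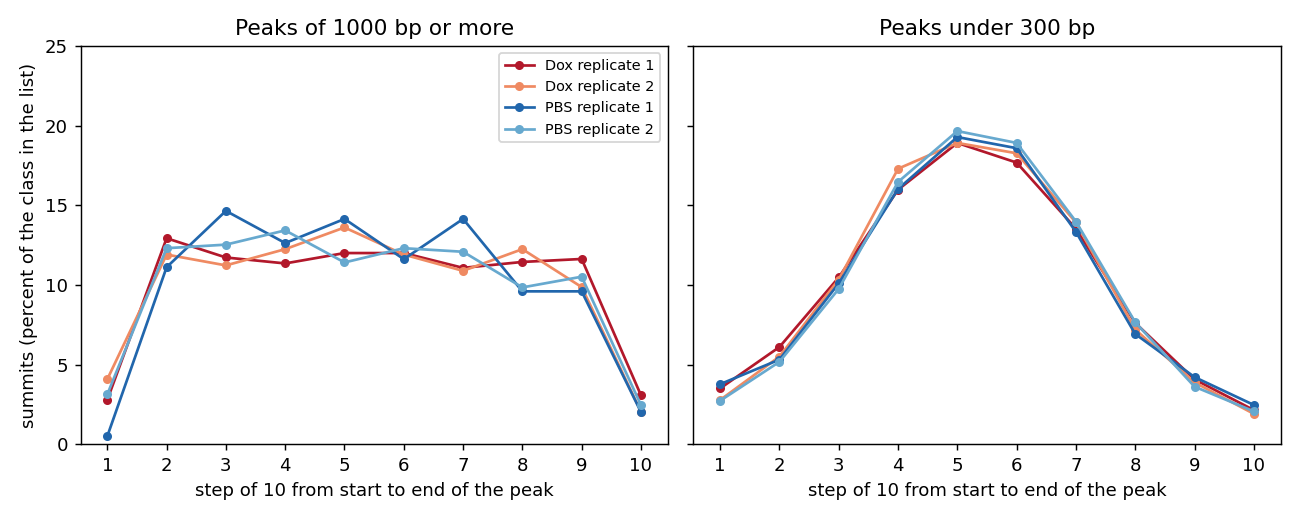
Percent of summits (y axis) in 10 equal steps from the start to the end of the peak (x axis), 1 line per library, for broad (left) and narrow (right) peaks. Broad summits are spread almost evenly over the inner 8 steps, whereas narrow summits gather in the middle, with 18.9 to 19.7% in step 5.

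At sites broad in all 4 lists, the summits of the libraries either fell together or far apart, and the small RNA genes were at the close end. The summit taken was that of the longest broad peak of each list, and a merged site can hold separate peaks. Over the 68 sites the largest distance between any 2 of the 4 summits had a median of 257 bp and reached 4476 bp. That largest value, at EGR1, exceeded the longest peak there (3252 bp). The 3475 bp at RPS2 likewise exceeded its longest peak (2801 bp). Some distances are thus between summits of separate peaks. At the 22 small RNA sites it had a median of 80 bp (13 to 638 bp), and 19 of them stayed within 200 bp. At the 8 ribosomal protein sites it had a median of 1386 bp (162 to 3475 bp), and 7 exceeded 500 bp. At the 20 sites in no listed window it had a median of 546.5 bp (17 to 1463 bp). At the SNORD3 site chr17:19091169-19093779 the 4 summits lay within 13 bp of each other in peaks of 1583 bp or more, and at NEAT1 within 15 bp. The ribosomal protein sites also had lower enrichment, with a median fold of 4.82, 4.21, 4.13 and 4.86 in the 4 lists against 10.4, 9.29, 8.59 and 12.6 at the small RNA sites. The parts of enrichment and of separate peaks within a merged site in the agreement of the summits were not tested.

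The longest peaks were in most cases a single call where other lists had several. The longest of all, 11884 bp at chr1:28832068-28843951 in Dox replicate 1, covered the snoRNA host gene SNHG3. In the same interval Dox replicate 2 had 7 peaks, PBS replicate 1 had 12 and PBS replicate 2 had 10, the longest of them 2631, 1572 and 2514 bp. The highest fold there was nearly equal in the 4 lists, at 8.78, 8.67, 9.04 and 8.52. The next, chrX:30818279-30824404 in Dox replicate 1, was 6126 bp long at a fold of only 3.00, and the other lists had 3, 4 and 6 peaks of at most 341, 484 and 771 bp there. The third was EEF1A1 at chr6:74222109-74227226 in PBS replicate 2 with 5118 bp, where the other lists had 4, 3 and 5 peaks. A stretch of the 5S ribosomal RNA array, chr1:228747765-228752877, was 5113 bp in Dox replicate 1 and 6, 5 and 6 peaks elsewhere, and ACTB at chr7:5562169-5567077 was 4909 bp in PBS replicate 2 and 4 peaks in each other list.

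Broad peaks had another broad peak nearby more often than narrow peaks did, though most had none within 10 kb. Another broad peak of the same list was within 10 kb of 19.7, 21.1, 20.2 and 24.6% of broad peaks, beside 5.25, 3.11, 2.42 and 3.30% of narrow peaks. Chromosome 1 held 15.9, 24.5, 23.2 and 19.2% of broad peaks and 12.2, 14.9, 14.4 and 14.8% of narrow peaks. Chromosome 1 carries the 5S array, the U1 and tRNA clusters of 1p36 and 1q23 and the 1q21 block of the lists above.

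The authors' deposited tables of replicate pairs give each pair an irreproducible discovery rate (IDR), a fraction that is small where both replicates rank a peak alike. With Dox, 73.4% of 425 pairs with both intervals broad had an IDR of at most 0.05, beside 16.96% of 1209 pairs with both narrow. With PBS these were 39.1% of 258 and 14.3% of 1166. Over pairs of all lengths the share was 27.5% of 8784 with Dox and 15.01% of 6244 with PBS. Pairs of all lengths thus also passed more often with Dox, so no difference between the conditions is read from the broad pairs. The IDR is built from the peak's significance, which goes with length, so this is a description. The tables hold their own intervals, and in 91.1% of the Dox and 91.6% of the PBS pairs of all lengths both were identical to peaks of the lists. This share was not computed for the broad pairs. The 425 broad pairs with Dox outnumber the 294 broad peaks of Dox replicate 2, and the 258 with PBS outnumber the 198 of PBS replicate 1. The broad pairs therefore cannot be taken as the broad peaks described above.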

How the data were processed

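p53 ChIP-seq was analysed in 4 libraries, 2 per condition. BWA, MACS2 and the build hg19 are named in the submitters' processing notes, without versions or settings. The authors deposited 1 peak list per library, called at a p of 0.05 per the peak names. Each deposited peak has a fold enrichment (a ratio to local background), its p-value and q-value as −log10, and its start, end and summit position. The authors also deposited IDR values, a fraction per replicate pair, by condition. Read depth is not given in these lists.

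Peaks of 1000 bp or more were called broad and those under 300 bp narrow. Peaks overlapped when they shared at least 1 bp, and broad peaks of the lists were merged where they did. A peak counted as in a gene window when it overlapped that window extended by 1 kb. The 114 hg19 windows came from general knowledge, with no hg19 annotation to read exons from, and 87 bear RefSeq symbols, of which 87 are on the same chromosome and 82 agree in length within 3 kb in GRCh38.p14. The members, the lists and the tests were chosen with earlier results of these data known; 42 of the windows, the groups of sites and the alternatives with lists of equal length or a band of −log10 p were added after the sites had been seen. Regions were named by rule: the 20 sites broad in all 4 lists with the best mean rank of p, the 5 longest peaks, the strongest broad peak of each list with no counterpart, small RNA and p53 target windows broad in at least 3 lists, and the peaks next to the threshold. Other genes named, HEXIM1, GDF15, CDKN1A and the ribosomal protein genes among them, were chosen after their values were seen. Fold, p and q chose or follow length and were not tested.

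Broad and narrow peaks were compared by two-sided exact permutation over sign flips of the 4 within-library differences, and Dox and PBS by two-sided exact permutation of 2 against 2 libraries, with Benjamini-Hochberg adjustment within each family. The p-values reflect only how these libraries vary, with passage as part of that. The replicate number marks passage 3 or 5 in both conditions, per the labels, so the pairing comes from passage. Alternatives were other length limits, q of at most 0.05, the summit in place of any overlap, each library left out and the replicate block. Counting steps were tested on simulated peaks. The software was scipy 1.17.1, pandas 2.3.3 and numpy 2.4.6 under Python 3.11.15, with matplotlib 3.10.9 for plots.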

Additional observations from a re-analysis of the deposited data

Results flagged for a closer look

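The difference in broad peaks between conditions went opposite ways in the 2 passages. Dox minus PBS was 877 broad peaks for replicate number 1 and -153 for replicate number 2. As a share of the list it was 0.552 percentage points for number 1 and -0.179 for number 2. With 1 library per condition and number, no test of one number against the other was possible. List length moved with these counts, and its part was not tested.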

How the results depend on the processing

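Of 72 alternative values, 64 kept the direction and the side of the threshold or stayed near the main value, and no p could reach 0.05 in any of them. The count of broad peaks, Dox minus PBS, ran from -28.5 (without Dox replicate 1) to 752.5 when 1 library was left out, and the share of the list from -0.0819 to 0.456 percentage points. The number of sites broad in all lists was 138 at a limit of 800 bp, 21 at 1500 bp and 34 with q of at most 0.05, and 75 to 121 when 1 library was left out, the highest without PBS replicate 1. The excess of broad peaks in small RNA windows turned to -0.0769 points within a −log10 p of 3 to 5, and that in repeated blocks to -0.0662 points with q of at most 0.05. With q of at most 0.05, recurrence differed by 20.1 points, small RNA windows by 17.3, the summit's offset by 25 and, between the conditions, the count by 143.5 and the share by 2.06. Limits of 800 and 1500 bp gave 732 and 86.5 for the count, 0.385 and 0.0368 for the share, 4.81 and 12.4 for small RNA windows and 2.26 and 6.19 for repeated blocks. The cause of each change was not tested. Leaving out 1 library gave 69.2 to 74.8 points for recurrence, 5.95 to 8.73 for small RNA windows, 2.53 to 4.13 for repeated blocks and 13.4 to 14.9 for the summit's offset. With the replicate block the differences were 362 peaks and 0.187 points (exact sign flips of 2 pairs, p = 1, smallest possible 0.5), which changed no call. Read depth, not given in the lists, and the placing of reads with several matches limit these values, since both bear on which repeated copies and which weak peaks were called.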

Other observations

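Some sites broad in all 4 lists lay at genes that no list fixed earlier held. ATF4, a transcription factor gene of the integrated stress response, had a longest peak of 1808 and 2064 bp with Dox (replicates 1 and 2) and 1971 and 2810 bp with PBS. RACK1, which encodes a scaffold protein of the small ribosomal subunit, had 2264, 1869, 1361 and 1533 bp, with both Dox peaks longer than both PBS peaks. DDX3X, an RNA helicase gene, had 1761, 1013, 1570 and 1978 bp. MUC6, a gene of gastric mucin with a coding tandem repeat, had 2795, 1877, 1024 and 1804 bp, again with both Dox peaks longer. These genes were looked up because their sites were broad, so the values are a description. Over all 3840 sites with a peak in all 4 lists, both Dox peaks were longer at 22.2%.

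JUN, FOS and ATF3, immediate-early and stress-response transcription factor genes, were each broad in 3 lists. FOS had 1580, 1195, 635 and 1213 bp, JUN 1593, 696, 1192 and 1172 bp, and ATF3 1789, 1065, 729 and 1196 bp. In FOS and ATF3 the shortest peak was that of PBS replicate 1, the list with the fewest peaks.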
